A study of Homo sapiens with 6 samples.

Results

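The miR-23a/27a/24-2 and miR-23b/27b/24-1 clusters were examined in exosomes from the culture medium of H9, a human ES cell line in wide use. Their 5 mature 3p miRNAs, hsa-miR-23a-3p, hsa-miR-27a-3p, hsa-miR-23b-3p, hsa-miR-27b-3p and hsa-miR-24-3p (the species prefix is left out from here on), were taken by name from the 2549 human miRNAs on the array, and all 5 passed the detection filter that left 474 miRNAs for testing. These miRNAs were chosen by their total signals in the comparison of substates, which was already known when the a and b clusters were set against each other, so that their differences are given as a description without a test.

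H9 cells were grown in TeSR-E8 medium on Matrigel, and exosomes were precipitated from the medium with ExoQuick-TC in 3 experiments, with 1 array for substate 1 and 1 for substate 2 in each. Substate 1 is the typical colony, strongly positive for the keratan sulphate epitope R-10G and negative for vimentin, and substate 2 is a colony with wide spaces between cells, weakly positive for R-10G and positive for vimentin. All arrays come from this single line, with no engineered genetic change stated, and whether its genome changed over the passages was not examined. The labels do not say whether the experiments began from separate cultures, so that the spread over the 3 experiments may be partly technical. Substate 1 was at passages 41, 46 and 50 in experiments 1, 2 and 3 and substate 2 at passages 52, 61 and 65, so that the substate and the later passage cannot be told apart.

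A miRNA is a short RNA that guides the silencing complex to mRNAs, mainly by pairing of its seed, bases 2 to 8 from the 5′ end, with sites in the mRNA. The a and b clusters are paralogous, each giving one miRNA of the miR-23, miR-27 and miR-24 families from a shared primary transcript. These families are known from studies of vascular, muscle, blood and fat cells, and miR-27 is best known for limiting adipocyte formation.

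The mature sequences are shown because they set what the arrays can tell apart. They were taken from RefSeq (GRCh38.p14), with the seed in capitals and, in the miR-23 and miR-27 pairs, also base 19, at which the a and b versions differ.
miR-23a-3p: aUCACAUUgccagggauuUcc
miR-23b-3p: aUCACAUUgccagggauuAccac
miR-27a-3p: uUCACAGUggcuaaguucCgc
miR-27b-3p: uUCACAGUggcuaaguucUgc
miR-24-3p: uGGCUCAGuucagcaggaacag
miR-24-1-5p: uGCCUACUgagcugauaucagu
miR-24-2-5p: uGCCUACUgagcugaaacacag

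Counted from the 5′ end, miR-23a-3p and miR-23b-3p differ by U19A within their shared length, and miR-23b-3p is longer (23 against 21 bases). miR-27a-3p and miR-27b-3p, both of 21 bases, differ by C19U. Each pair has a single seed (UCACAUU for miR-23 and UCACAGU for miR-27), so that the a and b versions share the seed-based part of targeting. Among the 2248 array miRNAs with a RefSeq sequence, the miR-23 seed was shared also by miR-23c, the miR-27 seed by no further miRNA, and the miR-24 seed GGCUCAG by none. Each miRNA had 2 probes with 10 spots each on every array, and how far a probe for one version also bound the other was not tested.

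The a cluster lies on the minus strand at chr19:13836287-13836659 (GRCh38.p14), where 3 hairpins fall within 373 bases of the long noncoding RNA gene MIR23AHG. There miR-23a-3p is at chr19:13836595-13836615, miR-27a-3p at chr19:13836447-13836467 and miR-24-3p, from MIR24-2, at chr19:13836289-13836310. The b cluster lies on the plus strand at chr9:95085208-95086088, where 3 hairpins fall within 881 bases inside the aminopeptidase gene AOPEP. There miR-23b-3p is at chr9:95085265-95085287, miR-27b-3p at chr9:95085505-95085525 and miR-24-3p, from MIR24-1, at chr9:95086064-95086085.

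Since miR-24-3p is the same RNA from both loci, its signal cannot be assigned to either cluster. The other arms of its hairpins, miR-24-1-5p and miR-24-2-5p, differ at 6 positions and would tell the loci apart, but neither was detected on any array. The same held for all 9 further products looked up, namely miR-23a-5p, miR-23b-5p, miR-24-1-5p, miR-24-2-5p, miR-27a-5p, miR-27b-5p, miR-3074-5p and miR-3074-3p, the last pair from the MIR24-1 locus, and the seed paralog miR-23c. A probe counted as detected when its signal was over 3 times the error given by the scanner software. The highest probe signal among these 9 miRNAs was that of miR-23c at 2.01 errors, followed by miR-23b-5p at 1.05 errors and miR-23a-5p at 0.79 errors. The clusters were therefore seen in exosomes through their 3p arms alone, and a 5p arm below this limit was not detectable.

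Each array held 50980 spots for these 2549 miRNAs, and no spot was saturated. Detected miRNAs numbered from 465 to 594 in experiments 1 and 2 and 332 and 310 in experiment 3, so that experiment 3 had the weakest arrays. The total signal of a miRNA, in intensity units, is given as a percent of the 99th percentile over all human miRNAs on that array, with the software's error. Scaled signals under 0.431%, the largest over the 6 arrays of the weakest scaled signal still detected, were raised to this floor before log2 was taken. The 99th percentile was lower in substate 2 in every experiment, by a log2 ratio of 0.82, 0.33 and 0.52, which the scaling adds to each difference. Differences are substate 2 minus substate 1 on the log2 scale, with SD over 3 experiments, and the number of arrays limits their precision. In material pooled from many vesicles, more vesicles and more miRNA per vesicle cannot be told apart.

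In exosomes of substate 2, the b cluster members miR-27b-3p and miR-23b-3p and the shared miR-24-3p had higher scaled signals in all 3 experiments, whereas the a cluster members miR-23a-3p and miR-27a-3p did not; with scaling by labelled amount, of these only miR-27b-3p was higher in all 3. Of the 5 miRNAs, 3 were higher in every experiment, against a background of 21.1% of the 474 tested, and 0 were lower in every experiment, against 23.4%. At least a 2-fold higher mean was found for 1 of them, miR-27b-3p (background 4.85%), and a 2-fold lower mean for 0 (background 4.64%). The median difference of all 474 miRNAs was −0.01. Limma, blocked by experiment and adjusted by Benjamini-Hochberg, called 0 of the 474 miRNAs in either direction (0%), with 109 at an unadjusted p under 0.05 (23%), 3 of the 5 among them. The methods' paired t-test, here adjusted over all 474 miRNAs, called 0 as well, with a lowest adjusted p of 0.239. It gave 57 at an unadjusted p under 0.05, 2 of the 5 among them, and no p for 14. The study ran this test only on miRNAs with a 2-fold difference, so that its counts cannot be set against these. Since the choice of the 5 miRNAs used the same comparison, nothing is read from the counts given here.

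**Figure D1:**
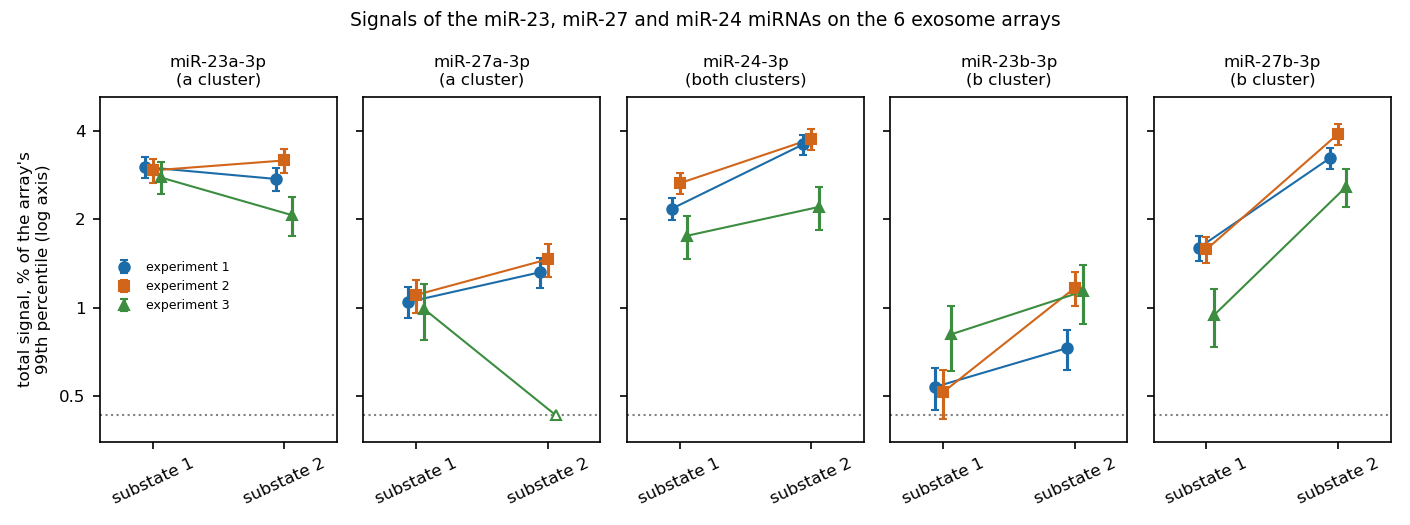
Total signal as a percent of the array's 99th percentile (log axis) for each miRNA in substate 1 and substate 2, with lines joining the arrays of an experiment and bars for the software's error. The dotted line is the floor of 0.431% and the open symbol an undetected value set at it. miR-27b-3p lies between 0.946% and 1.60% in substate 1 and between 2.58% and 3.91% in substate 2, whereas miR-23a-3p overlaps between the substates. Under scaling by labelled amount the mean difference of miR-24-3p is −0.04, not above 0 as drawn.

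miR-27b-3p had the clearest separation of the 5 in scaled signals. In substate 1 its signal was 1.60% ± 0.152, 1.58% ± 0.164 and 0.946% ± 0.21 of the 99th percentile in experiments 1, 2 and 3, and in substate 2 it was 3.24% ± 0.264, 3.91% ± 0.319 and 2.58% ± 0.378. Every array of substate 2 was above every array of substate 1, which held for 11.8% of the tested miRNAs, 1 of the 5 among them. The opposite order held for 14.1% of the tested miRNAs and 0 of the 5. Before scaling, miR-27b-3p overlapped between the substates, as experiment 3 in substate 2 (3.22 intensity units) lay below experiments 1 and 2 in substate 1 (7.60 and 5.61). The mean log2 signal was −6.23 ± 0.43 in substate 1 and −4.97 ± 0.30 in substate 2 (SD, n = 3). The differences were 1.02, 1.31 and 1.45, with a mean of 1.26 ± 0.22 and a mean fold of 2.39. By this mean miR-27b-3p stood at rank 11 of the 474 from the highest. In intensity units before scaling, its signal was 7.60, 5.61 and 1.70 in substate 1 and 8.70, 11 and 3.22 in substate 2, so that without any scaling the totals differed by 0.20, 0.97 and 0.92. The last compares a total of 1 probe with a total of 2, and with every probe summed on both arrays the unscaled difference of experiment 3 was 0.25. All 20 of its spots were well above background on the arrays of experiments 1 and 2, but only 6 and 10 in experiment 3.

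miR-23b-3p, the second b cluster member, was the dimmer and less certain case. Its signal was 0.538% ± 0.0882, 0.516% ± 0.0968 and 0.811% ± 0.203 in substate 1 and 0.729% ± 0.114, 1.17% ± 0.156 and 1.14% ± 0.257 in substate 2. It was higher in substate 2 within each experiment, but the substates overlapped, as experiment 1 in substate 2 lay below experiment 3 in substate 1. The mean log2 signal was −7.36 ± 0.36 in substate 1 and −6.66 ± 0.38 in substate 2. The differences were 0.44, 1.18 and 0.49, with a mean of 0.70 ± 0.41 and a mean fold of 1.63. The software's error of these differences was 0.33, 0.33 and 0.49, so that those of experiments 1 and 3 were about as large as their errors or little larger. Without scaling, the differences were −0.39, 0.85 and −0.04, and only experiment 2 was higher in substate 2.

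miR-24-3p, which both clusters encode, lay between the b and a cluster members in its mean difference. Its signal was 2.17% ± 0.183, 2.65% ± 0.221 and 1.76% ± 0.292 in substate 1 and 3.6% ± 0.283, 3.76% ± 0.305 and 2.20% ± 0.367 in substate 2. The value of experiment 3 in substate 2 lay below that of experiment 2 in substate 1, so that the substates overlapped, although each experiment was higher in substate 2. The mean log2 signal was −5.53 ± 0.30 in substate 1 and −5.01 ± 0.43 in substate 2. The differences were 0.73, 0.50 and 0.33, with a mean of 0.52 ± 0.20 and a mean fold of 1.43, a direction that was lost with scaling by labelled amount in place of the percentile (−0.04, or 0.47 above the median of all tested miRNAs). The software's error was 0.17, 0.17 and 0.34, and the difference of experiment 3 did not exceed it.

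miR-23a-3p, the first miRNA of the a cluster, was well detected on all 6 arrays and had no common direction. Its signal was 3.01% ± 0.256, 2.93% ± 0.266 and 2.78% ± 0.345 in substate 1 and 2.74% ± 0.25, 3.17% ± 0.296 and 2.07% ± 0.31 in substate 2. Experiment 2 was higher in substate 2 and the others were lower. The mean log2 signal was −5.10 ± 0.06 in substate 1, the narrowest spread of the 5 in that substate, and −5.25 ± 0.31 in substate 2. The differences were −0.14, 0.11 and −0.43, with a mean of −0.15 ± 0.27, less than the spread over experiments. With the 99th percentile taken over the miRNAs detected on all arrays the mean was 0.12, and with normexp background correction 0.26, against medians of all tested miRNAs of 0.18 and 0.32, so that it lay below that median in both.

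miR-27a-3p was the only one of the 5 that was undetected on an array. Its signal was 1.05% ± 0.126, 1.11% ± 0.142 and 0.991% ± 0.212 in substate 1 and 1.32% ± 0.157 and 1.46% ± 0.184 in experiments 1 and 2 of substate 2, whereas in experiment 3 of substate 2 it was undetected. The mean log2 signal was −6.58 ± 0.08 in substate 1 and −6.73 ± 0.98 in substate 2, the last with 1 value at the floor. On the array where it was undetected, its 2 probes read 0.375 ± 0.291 and 0.798 ± 0.299 intensity units, or 1.29 and 2.67 errors, so that the second lay just under the limit of 3. The differences were 0.34 and 0.40 in experiments 1 and 2, with software errors of 0.24 and 0.26, and −1.20 in experiment 3, where the value depends on the floor. The mean of −0.15 ± 0.91 therefore rests on experiment 3, and without it the mean was 0.37. The sign of this mean also turned with processing, from −1.07 in the deposited log2 values, which keep the undetected signal at its placeholder of 0.1 intensity units, to 0.35 with normexp. Relative to the median of all tested miRNAs these means were −0.95 and 0.03.

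**Figure D2:**
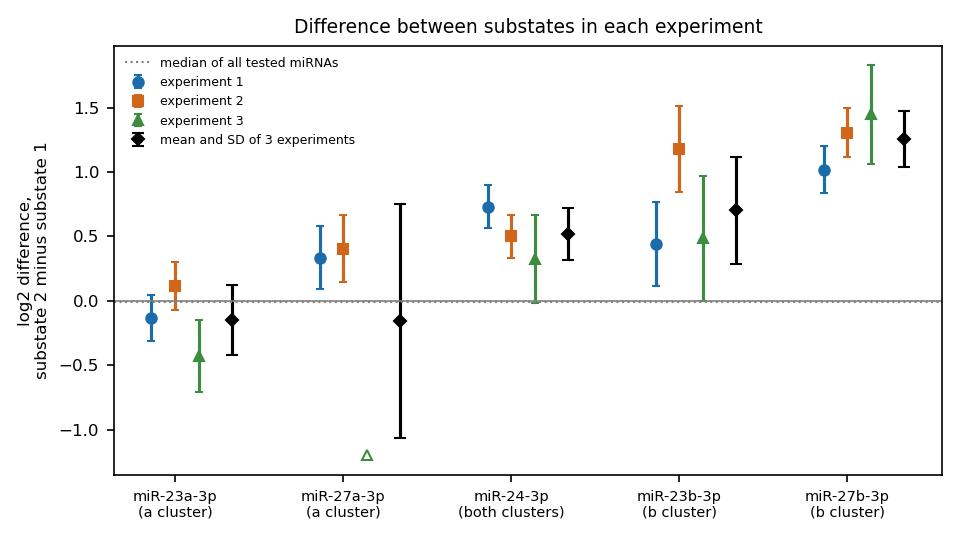
Log2 difference in signal, substate 2 minus substate 1, of each miRNA in each experiment, with bars for the software's error, and the mean with SD over 3 experiments as a black diamond. The open symbol is the miR-27a-3p value that depends on the floor. miR-27b-3p ranges from 1.02 to 1.45 with a mean of 1.26 ± 0.22, whereas miR-23a-3p lies on both sides of 0. The mean of miR-24-3p, 0.52 here, is −0.04 with scaling by labelled amount, and that of miR-23a-3p, −0.15 here, is 0.12 with the other 99th percentile and 0.26 with normexp.

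The a and b versions were next compared within each family, as the difference of the b version minus that of the a version. A factor common to all miRNAs of an array cancels in this contrast, which measures unequal change alone and not the level of either version. For miR-23 the contrast was 0.57, 1.07 and 0.91, with a mean of 0.85 ± 0.25 (SD, n = 3 experiments). For miR-27 it was 0.68, 0.90 and 2.65, with a mean of 1.41 ± 1.08, where the value of experiment 3 again depends on the floor. The mean over experiments 1 and 2, in which both versions were detected on every array, was 0.79. Thus the difference of the b version was above that of its a version in all 3 experiments in both families. For miR-27 in experiment 3 this rests on the undetected miR-27a-3p signal. In the scaled signals of experiments 1 and 2, miR-23b-3p was higher in substate 2 and miR-23a-3p lay within its error of 0. Both miR-27 versions were higher there, miR-27b-3p by more. Without scaling, the differences in experiments 1 and 2 were −0.39 and 0.85 for miR-23b-3p and −0.96 and −0.22 for miR-23a-3p. They were 0.20 and 0.97 for miR-27b-3p and −0.49 and 0.07 for miR-27a-3p.

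The software sums for each miRNA only those probes whose signal passes 3 times its error, so that the number of probes in a total can differ between the arrays of an experiment. In experiment 3 the total of miR-27b-3p held 1 probe in substate 1 and 2 in substate 2, that of miR-23a-3p held 2 and then 1, and that of miR-27a-3p held 1 and then 0. Such a change in number was found for 20% of the tested miRNAs in experiment 3, 25.3% in experiment 2 and 10.1% in experiment 1. When every probe was summed whether or not it passed, an alternative added once the values were known, the difference of miR-27b-3p in experiment 3 was 0.77 in place of 1.45, and its mean was 1.03 ± 0.27. The mean of miR-23a-3p was then −0.03 and that of miR-27a-3p 0.00. The contrast for miR-27 was 0.68, 0.90 and 1.5, with a mean of 1.03 ± 0.42, and that for miR-23 was 0.70, 1.15 and 0.62, with a mean of 0.82 ± 0.29. For miR-27 in experiment 3 this still rests on an undetected signal, as both probes of miR-27a-3p lay under the limit in substate 2.

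Each probe was then followed on its own, in 6 pairs of probe and experiment for each miRNA. The probes of a miRNA target the same molecule and are not replicates of the substates. For miR-27b-3p all 6 pairs were higher in substate 2, from 0.76 to 1.45, and 5 of them passed the limit on both arrays. For miR-24-3p all 6 were higher, from 0.29 to 0.80, and all 6 passed. For miR-23b-3p all 6 were higher, from 0.44 to 1.66, but only the 3 of the first probe passed, and the second probe was at most 2.76 errors on any array. For miR-23a-3p 2 pairs were higher and 4 lower, from −0.23 to 0.19, and for miR-27a-3p 4 were higher and 2 lower, from −0.91 to 0.49, with both lower pairs in experiment 3.

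Setting each probe of a b version against each probe of its a version gave 4 combinations in each experiment. The b probe had the larger difference in 4 of 4 combinations in every experiment in both families. The gap ranged over the 3 experiments from 0.54 to 1.35, 0.99 to 1.57 and 0.52 to 1.01 for miR-23, and from 0.53 to 0.83, 0.73 to 1.23 and 1.4 to 1.69 for miR-27. In each experiment 2 of the 4 combinations for miR-23 used the second probe of miR-23b-3p, which never passed the limit, and all 4 combinations for miR-27 in experiment 3 used miR-27a-3p probes that did not pass in substate 2. These combinations rest on signals not past the limit and say little of the order of the versions.

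**Figure D3:**
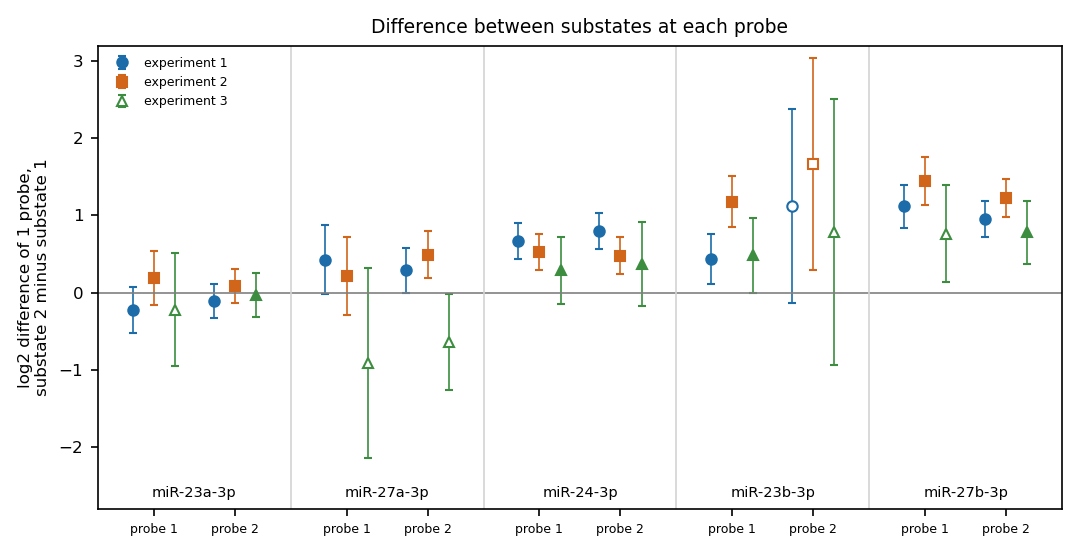
Log2 difference in signal, substate 2 minus substate 1, of each of the 2 probes of a miRNA in each experiment, with bars for the software's error. Open symbols mark pairs in which the probe did not pass 3 times its error on both arrays. Both probes of miR-27b-3p are higher in all 3 experiments, from 0.76 to 1.45, and the second probe of miR-23b-3p is open throughout with wide bars.

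The contrast was recomputed under alternative processing. Other percentiles or the labelled amount cannot move it where both versions are above the floor, as an array-wide factor cancels, and these are not counted as support. With the mean of the processed spot signals it was 0.79 for miR-23 and 1.03 for miR-27. It was smallest with normexp background correction and an offset of 50 on spot intensities, at 0.19 for miR-23 and 0.22 for miR-27, and there each experiment was also above 0. Quantile normalization gave 0.25 for miR-23, with 3 of the 6 values of miR-23b-3p at that setting's floor and values of −0.02, 0.00 and 0.76 in the experiments. For miR-27 it gave 1.30, where 3 of the 6 values of miR-27a-3p were at the same floor. The differences of the single miRNAs moved more with scaling. Under scaling by labelled amount, the median of all tested miRNAs was −0.51 and those of miR-27b-3p and miR-23b-3p were 0.70 and 0.14, or 1.21 and 0.65 above that median. Under the same scaling miR-23a-3p was at −0.71 and miR-27a-3p at −0.69, or −0.20 and −0.18 relative to the median. With quantile normalization the difference of miR-23b-3p was 0.14, with 0.00, 0.02 and 0.40 in the experiments.

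**Figure D4:**
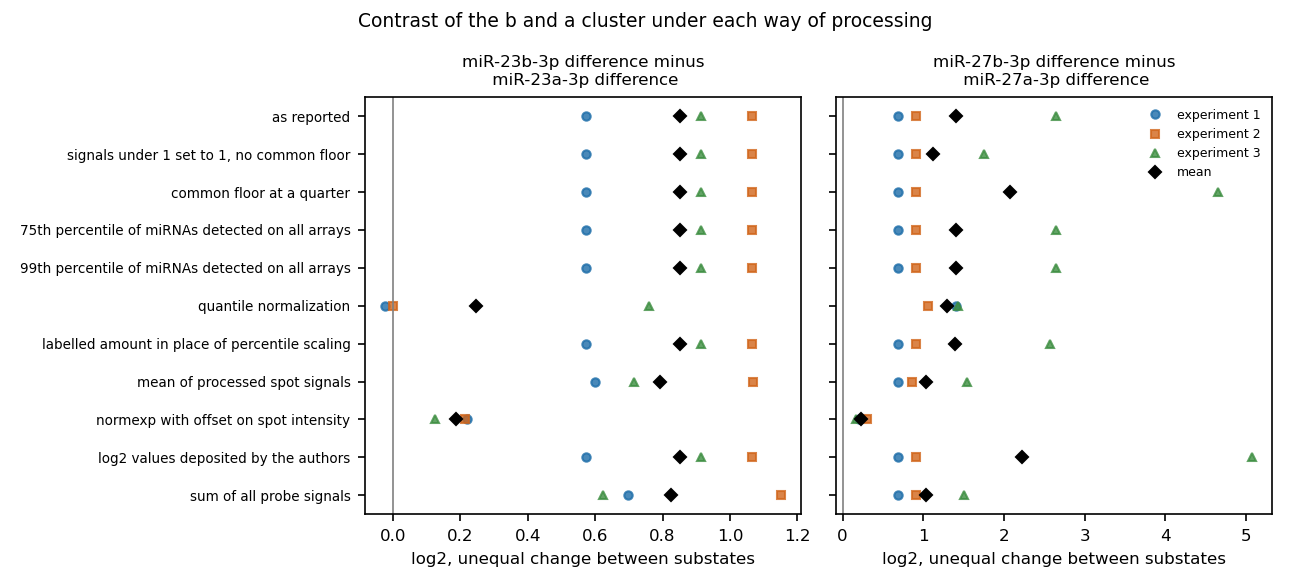
Difference of the b version minus difference of the a version (log2, unequal change between substates) for miR-23 and miR-27 under each way of processing, with a symbol for each experiment and a black diamond for the mean; the horizontal scales of the panels differ. As reported the means are 0.85 and 1.41, and with normexp 0.19 and 0.22. The rightmost points of miR-27 are experiment 3, in which the undetected miR-27a-3p value is set by the floor or, in the deposited values, by the placeholder of 0.1.

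Limma over the 289 miRNAs detected on all 6 arrays, 4 of the 5 among them (61% of the 474 were so detected), called 7 miRNAs (2.42%), of which 1 was miR-27b-3p. This was the only one of the fits run that called any of the 5. As miR-27b-3p was picked with this comparison in view, the call is given as a count and not as a test of it.

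Markers of cell types were looked up to place these values. Of 8 miRNAs typical of human pluripotent stem cells, 5 (miR-302a-3p, miR-302b-3p, miR-302c-3p, miR-302d-3p and miR-367-3p) were detected on all 6 arrays, while miR-371a-3p was detected on 2 arrays, miR-373-3p on 1 and miR-372-3p on none. Their summed signal ranged from 854% to 1397% of the 99th percentile in substate 1 and from 813% to 1209% in substate 2. Of 4 neural miRNAs, miR-124-3p and miR-128-3p were detected on all 6 arrays and miR-9-5p and miR-9-3p on none. Their summed scaled signal was 2.93% to 3.15% in substate 1 and 3.49% to 6.25% in substate 2, without overlap. The ratios were 1.11, 2.13 and 1.22 in experiments 1, 2 and 3. The scaling raises these ratios, and the sums were not compared without it. Among single tested miRNAs, 11.8% had every array of substate 2 above every array of substate 1. The part of these neural miRNAs in the differences of the b cluster was not tested. Of 4 endothelial and mural miRNAs, miR-126-3p and miR-145-5p were detected on 3 arrays each and miR-126-5p and miR-143-3p on none, with sums of 0% to 0.724% and 0% to 0.669%. Of 4 blood cell miRNAs only miR-486-5p was detected, on 3 arrays, with sums of 0% to 0.946% and 0% to 0.297%. The highest of these sums were above the floor and of the order of the signals of miR-23b-3p, and their part in the differences was not tested.

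The tested miRNAs most like each of the 5 were found by the root mean square distance of their log2 signals over the 6 arrays, each miRNA centred on its own mean, as a description without a test. Nearest to miR-27b-3p were miR-598-3p (distance 0.20, difference 1.37, detected on 5 arrays), miR-769-5p (0.23, difference 1.10, detected on 5 arrays) and miR-766-3p (0.23, difference 1.23). Nearest to miR-23b-3p were miR-124-3p (0.16), miR-22-3p (0.16) and miR-34a-5p (0.17), and nearest to miR-24-3p were miR-140-3p (0.16), miR-29c-3p (0.18, detected on 3 arrays) and miR-320a (0.19). Nearest to miR-23a-3p were miR-505-3p (0.11), miR-4499 (0.13) and miR-1471 (0.16), and nearest to miR-27a-3p, with its 1 value at the floor, were miR-29a-3p (0.27), miR-642b-3p (0.29) and miR-1471 (0.34).

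None of the 5 was among the 3 nearest of another. By distance the closest pair was miR-23a-3p and miR-24-3p (0.38), followed by the a cluster neighbours miR-23a-3p and miR-27a-3p (0.39) and by miR-24-3p and miR-27b-3p (0.41). The b cluster neighbours miR-23b-3p and miR-27b-3p were 0.60 apart, and the seed partners 0.58 (miR-23) and 0.84 (miR-27). Over these 6 arrays, neither a shared seed nor a shared cluster placed a miRNA among the nearest 3 of another.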

How the data were processed

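The exosome arrays were Agilent SurePrint G3 human miRNA arrays in 1 colour, which the authors read with Agilent Feature Extraction 12.0.3.2 (experiment 1) and 11.5.1.1 (experiments 2 and 3). The deposited intensity values are spot signals and background, probe signals with errors, and a total signal per miRNA, not normalized between arrays. The authors' log2 values, deposited as well, served as an alternative. The methods state GeneSpring scaling to the 99th percentile with signals under 1 set to 1; in the deposited values all 160 detected totals under 1 stand at 1, whereas all 12596 undetected totals keep their placeholder of 0.1, each times a factor of its array (tolerance 0.01 in log2). A stated correction to 1 ng was not looked for here. All 2698 detected totals equalled the sum of the probes past 3 errors to within 1%.

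Labelled amounts were 72.4, 100 and 51.4 ng in experiments 1, 2 and 3, the same for both substates. Experiment 1 was on slide 1 and experiments 2 and 3 on slide 2, so that the block by experiment also holds the slide. Detection on 3 or more arrays left 474 miRNAs, which were tested with limma 3.58.1 (R 4.3.3), two-sided, after testing the procedure on simulated data, and a call needed an adjusted p under 0.05 and a 2-fold difference. The pairing comes from the experiment numbers in the labels and the paired test of the study. Paired arrays' deviations from the substate means correlated at 0.67, 0.03 and 0.52. The normexp alternative used median spot intensity.

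The miRNAs named are the 5 members, the other products of their loci, seed partners on the array, the 3 nearest tested miRNAs of each member, and marker lists. Members and lists were chosen with earlier results of these data known. Mature sequences come from RefSeq, GRCh38.p14, with gene names of the same build.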

Additional observations from a re-analysis of the deposited data

How the results depend on the processing

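Over 17 alternatives, limma or the paired t-test over all tested miRNAs called 0 miRNAs in 14. The exceptions were 3 calls with normexp, 1 without the replicate block and 7 of 289 miRNAs when detection on all 6 arrays was required. Leaving out an experiment gave 0 to 0 calls with limma, at a lowest adjusted p of 0.303, 0.172 and 0.397 without experiments 1, 2 and 3. These fits have fewer arrays still, so that their 0 calls add no support to the count of 14. The contrast of b minus a for miR-27 was 0.22 with normexp and 0.79 to 1.78 with an experiment left out, the lowest without experiment 3. That for miR-23 was 0.25 with quantile normalization, 0.19 with normexp, and 0.74 to 0.99 with an experiment left out. The block does not enter these contrasts or the mean differences, which are paired by experiment. Over 14 settings the mean difference was above 0 in 14 for miR-27b-3p, in 14 for miR-23b-3p (0.14 with quantile normalization and 0.14 with labelled amount, against 0.70), in 13 for miR-24-3p, in 6 for miR-27a-3p and in 2 for miR-23a-3p. For all but miR-27a-3p, setting signals under 1 to 1, lowering the floor or dropping the block returned the reported mean unchanged. Those settings could not change the sign and add no support to these counts. With an experiment left out, it was 1.16 to 1.38 for miR-27b-3p, 0.46 to 0.83 for miR-23b-3p, 0.41 to 0.62 for miR-24-3p, −0.28 to −0.01 for miR-23a-3p and −0.43 to 0.37 for miR-27a-3p. The mean of miR-27b-3p was 1.53 with the 99th percentile of the miRNAs detected on all arrays and 0.57 with normexp, or 1.35 and 0.26 above the median of all tested miRNAs. That of miR-27a-3p was −1.07 in the deposited log2 values, where it rests on the placeholder of the undetected signal. In experiment 3, 1 and 5 of 20 spots of miR-23b-3p were well above background in substates 1 and 2, and 7 and 0 of miR-27a-3p. The counts were 6 and 10 for miR-27b-3p, 7 and 9 for miR-24-3p and 12 and 10 for miR-23a-3p. These weak signals limit what can be said of the 5 miRNAs, and the cause of each shift was not tested.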
